A study of Homo sapiens with 12 samples.

Results

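The anaphase-promoting complex or cyclosome (APC/C) was followed through the mRNA of 10 of its genes after knockdown of CENPF, FOXM1 or both in human hTERT-RPE1 cells. The genes were listed by name and found by symbol among the 14862 genes that have a normalized count. They are the E2 enzymes UBE2C and UBE2S, the coactivator FZR1, the inhibitor FBXO5, the substrate PTTG1, and the core subunits CDC27, CDC16, CDC23, ANAPC1 and ANAPC11. UBE2C, PTTG1 and FBXO5 were set as cycling regulators against the 5 core subunits. Each of the 10 passed the filter on low values, which left 14857 genes in all.

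Cells received siRNA against CENPF (siCENPF), against FOXM1 (siFOXM1), against both (siCENPF+siFOXM1) or a negative control siRNA (siNeg), with 3 libraries a group. The siRNA was present overnight at 20 nM, the harvest followed at 48 h, and polyadenylated RNA was sequenced. hTERT-RPE1 is a line of retinal pigment epithelial origin immortalised with telomerase, and all groups are the parental line, with the genotype given as WT. The labels number the libraries 1 to 3 within each group and do not say whether these were separate cultures, so p-values measure only the spread between these libraries.

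APC/C is the ubiquitin ligase that ends mitosis. With the coactivator CDC20 or FZR1 it binds its substrates, UBE2C places the first ubiquitins and UBE2S lengthens the chain. The destruction of securin (PTTG1) and of cyclin B lets sister chromatids part and the cell leave mitosis, and FBXO5 holds the ligase off in S and G2 phase. In dividing cells the mRNAs of UBE2C, PTTG1 and FBXO5 are known to rise and fall with the cell cycle, while those of the core subunits vary little. FOXM1 is a transcription factor of genes expressed in G2 and M phase, and CENPF is a protein of the kinetochore and nuclear matrix.

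The APC/C genes stayed near their control levels under each siRNA. Against siNeg, the log2 fold changes of the 10 genes lay between -0.17 and 0.04 with siCENPF, between -0.24 and 0.12 with siFOXM1, and between -0.18 and 0.12 with siCENPF+siFOXM1. None was called higher or lower at an adjusted p of 0.05 by limma when the libraries were treated as unpaired. PTTG1 was called lower with siFOXM1 once libraries of the same number were compared with each other. In these bulk samples, fewer cells in a given phase and less RNA per cell cannot be told apart.

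The knockdowns were present in the labelled libraries. FOXM1 had normalized counts of 732, 491 and 816 in the siFOXM1 libraries and of 729, 816 and 822 in the siCENPF+siFOXM1 libraries, against 4186, 4438 and 4763 in the siNeg libraries. CENPF had 893, 827 and 1017 in the siCENPF libraries and 1360, 1360 and 1284 in the siCENPF+siFOXM1 libraries, against 7797, 9537 and 7993 in the siNeg libraries. Libraries held 13671250 to 35411230 reads in genes, and the number 3 libraries of siNeg and siCENPF were the deepest. Of the epithelial markers, KRT8 (6032 to 9906 normalized counts), KRT18 and KRT7 were present in all libraries. CDH1 (E-cadherin, a gene other than FZR1) and EPCAM had no normalized count. Of the markers of differentiated pigment epithelium, BEST1, PMEL and MITF had normalized counts, RLBP1 had none, and RPE65 and TYR were listed at 0 FPKM. The mesenchymal marker VIM had 155061 to 185835 normalized counts, the blood and neural markers had none, and of the endothelial markers PECAM1 had 2.55 to 21.8 and CDH5 none.

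The members differed widely in level. As reads per kilobase of all exonic positions of the gene, scaled to the reads in genes of the library (RPKM), UBE2S had 107.6 ± 9.88 in the siNeg libraries (SD, n = 3), UBE2C had 70.6 ± 2.70 and PTTG1 had 60.5 ± 8.25. The tetratricopeptide repeat subunits CDC27 and CDC16 followed with 26.1 ± 0.892 and 24.2 ± 0.235 RPKM in the siNeg libraries. ANAPC11 (14.9 ± 0.812), FZR1 (12.9 ± 1.18), FBXO5 (12.1 ± 2.16) and CDC23 (10.3 ± 0.822) came next on that scale, and within these 4 each range met that of its neighbour. ANAPC1, the large scaffold subunit, was lowest with 4.58 ± 0.265 RPKM in the siNeg libraries. The order of UBE2C and PTTG1 and that of the middle members depended on the length used: in the authors' FPKM, whose gene length equals the summed exons of every transcript for 8 of the 10 members and is shorter for CDC16 and ANAPC1, PTTG1 (22.7) was above UBE2C (16.5) and ANAPC11 (3.62) was below CDC23 (5.48) in siNeg. With the longest coding transcript as the length, ANAPC11 (44.1) and CDC16 (43.4) stood above CDC27 (30.7) in siNeg. Under all 3 lengths UBE2S, UBE2C and PTTG1 stood above the 5 core subunits, and ANAPC1 was lowest. The GENCODE v29 gene of ANAPC1 starts at 111611639, outside the authors' span from 111766271, so its exon length may be too long for these reads. Between 539 and 11745 reads stood behind each value of a member in a library.

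Promoter sequence was examined for 2 words known from cell cycle promoters, the cell cycle homology region (CHR) and the CCAAT box. RefSeq windows of 250 bases before to 50 bases after the start (GRCh38.p14) were matched for 9 of the 10 members, with 15 windows in all. UBE2C had no window, so its promoter was not examined for either word. The CHR word, TTTGAA or TTCGAA on either strand, was in windows of 3 members (FBXO5, FZR1 and ANAPC1) and in 16.4% of all 35116 windows. It began 226 bases before the start in FZR1 and 37 bases after the start in ANAPC1. The CCAAT word, on either strand, was in windows of 7 members (PTTG1, FBXO5, UBE2S, CDC27, CDC16, CDC23 and ANAPC11) and in 34.6% of all windows. Members were counted per gene, over all its windows, and the shares per window, so counts and shares are not on the same scale. Stretches upstream of PTTG1 (chr5:160421712-160421821, plus strand), of the downstream start of FBXO5 (chr6:152983042-152983191, minus strand) and of CDC27 (chr17:47189423-47189545, minus strand) are shown, since these are a cycling substrate, a cycling inhibitor and a core subunit. Capitals mark CCAAT or its complement ATTGG, the places where both overlap (CCAATTGG), and the CHR word read on the other strand (TTCAAA).
PTTG1: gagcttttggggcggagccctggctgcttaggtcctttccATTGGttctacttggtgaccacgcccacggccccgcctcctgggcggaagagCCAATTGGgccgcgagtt
FBXO5: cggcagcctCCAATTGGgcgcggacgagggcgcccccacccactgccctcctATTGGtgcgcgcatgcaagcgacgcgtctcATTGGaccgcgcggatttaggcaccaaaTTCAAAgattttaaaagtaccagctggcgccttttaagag
CDC27: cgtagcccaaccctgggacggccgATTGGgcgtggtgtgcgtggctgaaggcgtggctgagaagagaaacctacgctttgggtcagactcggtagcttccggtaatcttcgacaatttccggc
In the FBXO5 stretch the CHR word began 40 bases before the start and the nearest CCAAT word 68 bases before it. The window of the upstream FBXO5 start held neither word. PTTG1 held CCAAT words and no CHR word of these letters in its windows. A match describes the letters of the window and is not evidence of binding.

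UBE2C (ENSG00000175063, chr20:45812576-45816957, plus strand, hg38) encodes the E2 that primes APC/C substrates. Its normalized counts in libraries 1, 2 and 3 were 1650, 1914 and 1499 with siCENPF. They were 1771, 2103 and 1644 with siFOXM1 and 1673, 1916 and 1652 with siCENPF+siFOXM1, against 1754, 1754 and 1666 with siNeg. Every knockdown group had its highest UBE2C value in library 2, and the range of each enclosed that of siNeg. UBE2C stood at 107% of its siNeg mean with siFOXM1, a log2 fold change of 0.09 (95% confidence interval -0.15 to 0.32; adjusted p = 0.945, limma). The intervals of UBE2C were -0.28 to 0.20 with siCENPF and -0.22 to 0.25 with siCENPF+siFOXM1, on the same log2 scale. UBE2C has 4 named pseudogene copies, and reads shared with them may have been split or lost in the authors' counting.

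PTTG1 (ENSG00000164611, chr5:160421822-160428744, plus strand, hg38) encodes securin, the inhibitor of separase whose destruction starts anaphase. Its normalized counts in libraries 1, 2 and 3 were 1907, 2828 and 2200 with siCENPF and 1862, 2399 and 1882 with siCENPF+siFOXM1. With siFOXM1 they were 1731, 2036 and 2090, against 2013, 2506 and 2409 with siNeg. Library 1 was the lowest of its group in all 4 groups, and the siFOXM1 values overlapped those of siNeg because siNeg library 1 was below siFOXM1 libraries 2 and 3. Compared within numbers, siFOXM1 was below siNeg in all 3 pairs, by log2 differences of -0.22, -0.30 and -0.21. The log2 fold change of PTTG1 with siFOXM1 was -0.24 ± 0.15 (SE; 95% confidence interval -0.56 to 0.08; adjusted p = 0.797, limma) without regard to numbers. With replicate number as a block, the same fold change had an SE of 0.067, an interval of -0.38 to -0.10 and an adjusted p of 0.0236 (limma), and PTTG1 was called lower.

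That call of PTTG1 depended on the libraries and on the unit. Leaving out number 1 or number 3 from the blocked fit gave an adjusted p of 0.130 or 0.0703 (limma), and the blocked fit of the FPKM table gave 0.156. The log2 fold change kept its size in these fits, at -0.25, -0.26 and -0.24. With siCENPF+siFOXM1, PTTG1 was below siNeg in all 3 pairs as well, by -0.11, -0.06 and -0.36, with a log2 fold change of -0.18 and an adjusted p of 0.902 (limma). With siCENPF, PTTG1 averaged 2311 ± 471, against 2309 ± 261 with siNeg (SD, n = 3 each). The comparisons share the siNeg libraries. PTTG1 has 3 named copies (PTTG2, PTTG3P and PTTG4P), so its count may hold or lack reads of these.

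FBXO5 (ENSG00000112029, chr6:152970519-152983579, minus strand, hg38) encodes EMI1, the pseudosubstrate inhibitor of APC/C. Its normalized counts in libraries 1, 2 and 3 were 775, 727 and 859 with siCENPF. They were 862, 891 and 885 with siFOXM1 and 795, 851 and 819 with siCENPF+siFOXM1, against 826, 755 and 1061 with siNeg. The siNeg group was the widest of the 4, and it enclosed all siFOXM1 and siCENPF+siFOXM1 values of FBXO5. The log2 fold change of FBXO5 was -0.15 with siCENPF (95% confidence interval -0.40 to 0.10; adjusted p = 1.00, limma) and 0.01 with siFOXM1 (-0.23 to 0.26).

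UBE2S (ENSG00000108106, chr19:55399745-55407777, minus strand, hg38), the E2 that elongates ubiquitin chains, had normalized counts of 4871, 5581 and 5219 with siCENPF. It had 5230, 5444 and 5824 with siFOXM1 and 4937, 5334 and 5390 with siCENPF+siFOXM1, against 5508, 5287 and 6293 with siNeg. Library 1 was the lowest of each knockdown group. The log2 fold change of UBE2S was -0.12 both with siCENPF and with siCENPF+siFOXM1, each with a 95% interval of -0.31 to 0.07 without the block. With replicate number as a block, UBE2S passed an unadjusted p under 0.05 (limma) in both comparisons and was called in neither. FZR1 (ENSG00000105325, chr19:3506273-3538330, plus strand, hg38), the coactivator also called CDH1 that keeps APC/C active in G1, had 1436, 1501 and 1417 normalized counts with siCENPF. It had 1165, 1462 and 1331 with siFOXM1 and 1237, 1376 and 1255 with siCENPF+siFOXM1, against 1353, 1526 and 1368 with siNeg. Library 2 was the highest FZR1 value in all 4 groups, and the groups overlapped. Within numbers FZR1 was below siNeg in all 3 pairs with siFOXM1, by log2 differences of -0.22, -0.06 and -0.04, and in all 3 with siCENPF+siFOXM1, by -0.13, -0.15 and -0.12. Its log2 fold changes were -0.11 (95% interval -0.31 to 0.09) and -0.13 (-0.33 to 0.07), with adjusted p of 0.888 and 0.858 by limma, and of 0.329 and 0.197 with the block.

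**Figure D1:**
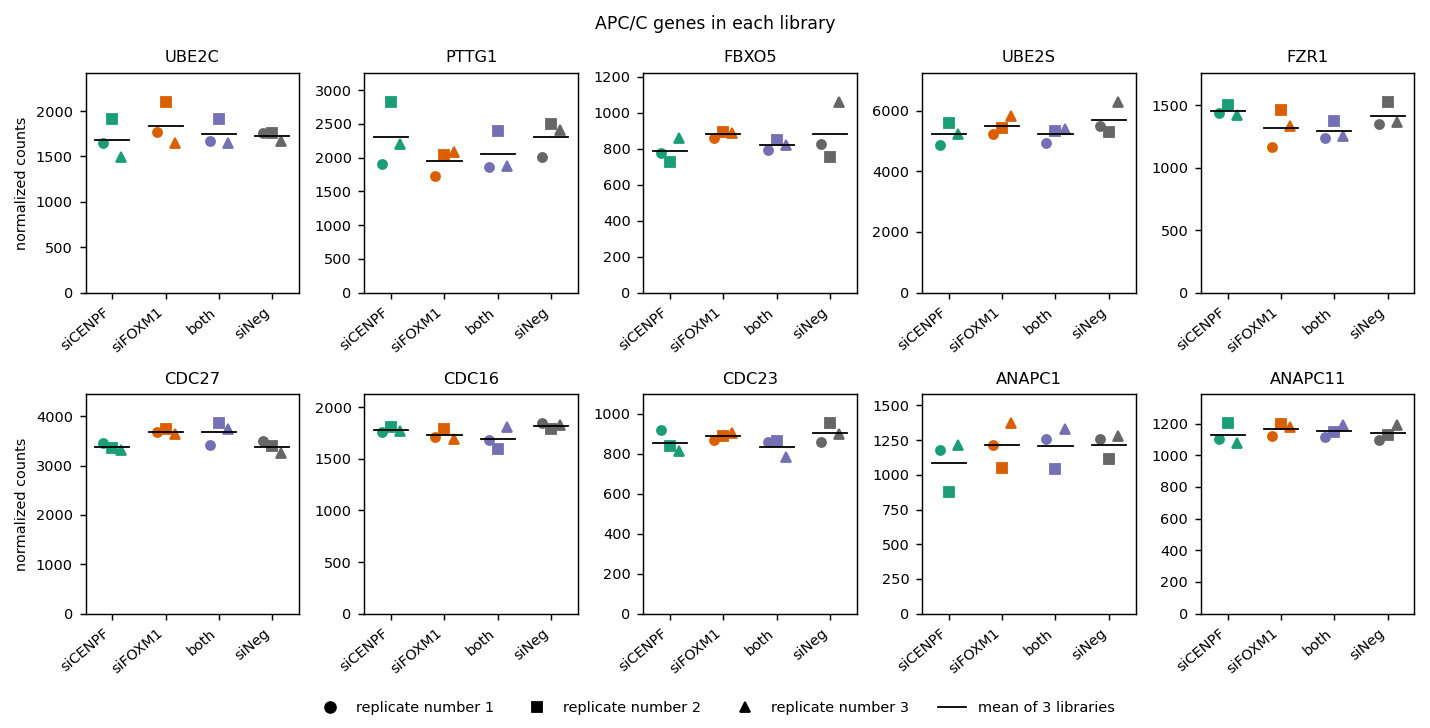
Normalized counts (vertical axes, starting at 0) of the 10 APC/C genes in each of the 12 libraries, by siRNA group (horizontal axis; both stands for siCENPF+siFOXM1). Point shapes give the replicate number and lines the group mean of 3 libraries; PTTG1 library 1 is the lowest of its group throughout, and CDC27 with siFOXM1 is the one gene and group that clears all siNeg values.

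Among the 10 members, the core subunits apart from ANAPC1 varied least from the lowest to the highest of the 12 libraries. This did not hold for all core subunits outside the 10, such as CDC26 and ANAPC16. CDC27 (ENSG00000004897, chr17:47117703-47189422, minus strand, hg38), a tetratricopeptide repeat subunit that receives the coactivator, had normalized counts of 3677, 3731 and 3644 with siFOXM1 and 3408, 3862 and 3740 with siCENPF+siFOXM1. It had 3452, 3359 and 3313 with siCENPF, against 3496, 3400 and 3252 with siNeg. All 3 siFOXM1 values lay above all siNeg values, with a log2 fold change of 0.12 (95% confidence interval -0.03 to 0.28, adjusted p = 0.758, limma without the block). In the blocked fit CDC27 passed an unadjusted p under 0.05 (limma) with siFOXM1 and with siCENPF+siFOXM1, and was not called. CDC27 with siFOXM1 was the 1 of 10 members whose libraries did not overlap those of siNeg, where 13.4% of all genes tested did not overlap in that comparison. No member was clear of siNeg with siCENPF or siCENPF+siFOXM1, where 9.31% and 12.9% of all genes did not overlap. CDC27 has 3 named pseudogene copies that may share its reads.

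CDC16 (ENSG00000130177, chr13:114234887-114272723, plus strand, hg38) and CDC23 (ENSG00000094880, chr5:138187648-138213343, minus strand, hg38) encode further tetratricopeptide repeat subunits. CDC16 ran from 1600 to 1848 normalized counts over the 12 libraries, with a mean of 1694 ± 103 with siCENPF+siFOXM1 and of 1821 ± 29.7 with siNeg (SD, n = 3 each). CDC23 ran from 783 to 955, with a mean of 836 ± 46.1 with siCENPF+siFOXM1 and of 904 ± 48.8 with siNeg. These were the lowest group means of both genes, and their values overlapped those of siNeg in each case. CDC23 shares 68 exonic bases with KIF20A, which is read from the other strand, and no source used here says whether strand was used in counting.

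ANAPC11 (ENSG00000141552, chr17:81890790-81900991, plus strand, hg38), the RING subunit that binds the E2, was the most even of the 10, from 1078 to 1204 normalized counts over all libraries. It shares 247 exonic bases with NPB on the same strand. ANAPC1 (ENSG00000153107, chr2:111766271-111884690, minus strand, hg38) was the exception among the core subunits of the 10 members. It had 1176, 873 and 1212 normalized counts with siCENPF, 1214, 1047 and 1374 with siFOXM1 and 1261, 1042 and 1330 with siCENPF+siFOXM1, against 1259, 1112 and 1278 with siNeg. Library 2 was the lowest ANAPC1 value in all 4 groups. The log2 fold change of ANAPC1 with siCENPF was -0.17 (95% confidence interval -0.48 to 0.13; adjusted p = 1.00, limma without the block). In the blocked fit ANAPC1 passed an unadjusted p under 0.05 (limma) in that comparison and was not called. ANAPC1 has 1 named pseudogene copy and shares 327 exonic bases with AC017002.6 on the same strand.

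**Figure D2:**
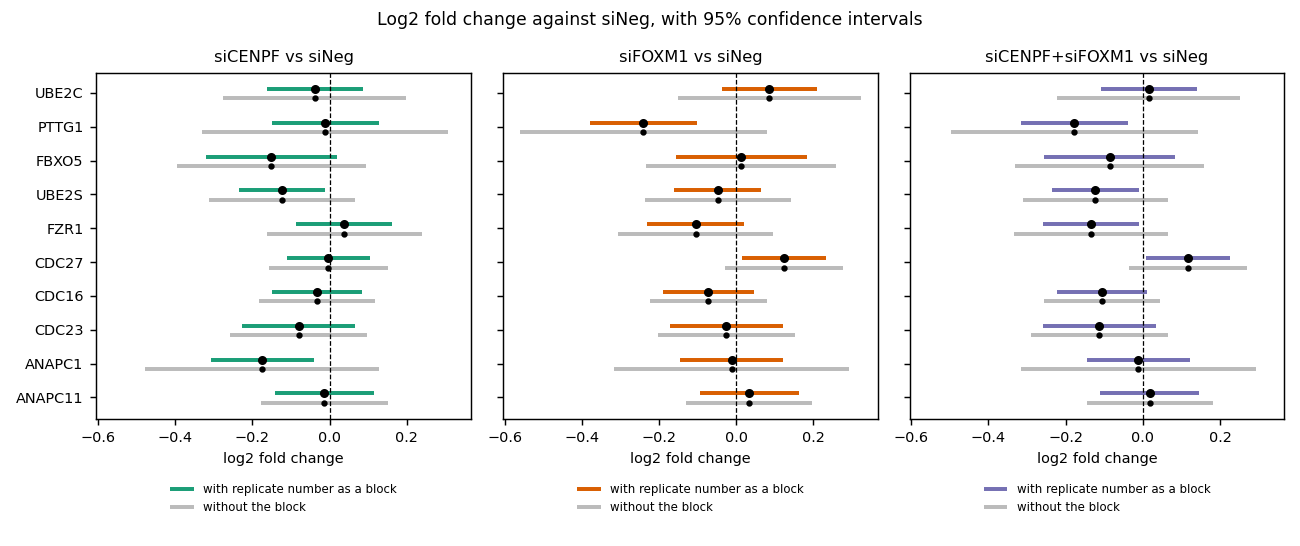
Log2 fold change against siNeg (horizontal axis) of each of the 10 genes (vertical axis), 1 panel for each knockdown; dots are the limma estimates and bars their 95% confidence intervals, coloured with replicate number as a block and grey without it. All grey bars cross 0, and PTTG1 with siFOXM1 (-0.24) is the estimate farthest from it. The coloured bars, before adjustment, are clear of 0 for 2 genes with siCENPF, 2 with siFOXM1 and 4 with siCENPF+siFOXM1.

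The median log2 fold change of the 10 members was -0.04 with siCENPF, -0.02 with siFOXM1 and -0.10 with siCENPF+siFOXM1, beside -0.00 over all genes in each. Counted over the 10, limma without the block called 0 with siCENPF, 0 with siFOXM1 and 0 with siCENPF+siFOXM1. It called 0.337%, 0.66% and 0.458% of all genes in these comparisons. At an unadjusted p under 0.05, 0 members passed in each of them, where 821, 1155 and 1093 genes of all did. On recovered reads, edgeR and DESeq2 each called 0 members. Of all genes, edgeR called 49, 96 and 68 and DESeq2 135, 244 and 166. With the block, limma called 0 members with siCENPF, 1 with siFOXM1 (PTTG1, lower) and 0 with siCENPF+siFOXM1, where it called 4.52%, 8.72% and 7.9% of all genes. At an unadjusted p under 0.05 in the blocked fits, 2 of 10 members passed with siCENPF (UBE2S and ANAPC1, lower), 2 with siFOXM1 (PTTG1, lower, and CDC27, higher) and 4 with siCENPF+siFOXM1 (PTTG1, UBE2S and FZR1, lower, and CDC27, higher). Of all genes, 16.9%, 21.6% and 21.3% passed in these fits, so the share of members was above that of all genes with siCENPF+siFOXM1 and near it with the others. None of these passed the adjusted threshold apart from PTTG1 with siFOXM1.

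The double knockdown was also set against the single ones. Of siCENPF+siFOXM1 against siFOXM1, the members' log2 fold changes lay between -0.10 and 0.06, and of siCENPF+siFOXM1 against siCENPF between -0.17 and 0.16. The interaction, which asks whether the effect of both siRNAs departs from the sum of each alone, lay between -0.07 and 0.17. Limma called 0 members in these 3 comparisons without the block, where it called 0.00673%, 0.0808% and 0.0% of all genes, and 0 with it, where it called 0.296%, 1.46% and 0.841%. At an unadjusted p under 0.05 (limma), 0 members passed in each without the block, where 1.97%, 2.95% and 2.38% of all genes did. With it, 0, 4 and 0 of 10 passed, where 7.66%, 11.8% and 8.52% of all genes did. The share of members was thus above that of all genes for siCENPF+siFOXM1 against siCENPF. The 4 held 1 cycling regulator and 2 core subunits. EdgeR and DESeq2 called 0 members in each, where edgeR called 1, 11 and 0 genes of all and DESeq2 4, 32 and 21.

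In the authors' deposited tables, which compare each knockdown with siNeg by edgeR, the lowest p of a member before adjustment was 0.341 with siCENPF, 0.0941 with siFOXM1 and 0.250 with siCENPF+siFOXM1, and no adjusted p of a member passed 0.05.

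For all members but CDC27, CDC16 and CDC23 the replicate numbers lay farther apart than any knockdown group lay from siNeg. Averaged over the 4 groups, PTTG1 deviated from its group mean by -0.19 on the log2 scale in number 1, by 0.18 in number 2 and by 0.00 in number 3. UBE2C deviated by 0.14 in number 2 and by -0.11 in number 3, and ANAPC1 by -0.21 in number 2 and by 0.15 in number 3. FZR1 ran from -0.08 in number 1 to 0.10 in number 2, and UBE2S from -0.07 in number 1 to 0.07 in number 3. FBXO5 ran from -0.06 in number 2 to 0.10 in number 3. The cycling regulators did not follow one order over the numbers, since FBXO5 was highest in number 3 (0.10) and UBE2C lowest there. CDC27, CDC16, CDC23 and ANAPC11 deviated by at most 0.05 in any number. The SD of PTTG1 within groups was 0.21 on the log2 scale, and 0.11 within groups and numbers; for ANAPC1 it was 0.20 and 0.07. What the numbers stand for (day, passage or preparation) is not given, and the part of depth in these differences was not tested.

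**Figure D3:**
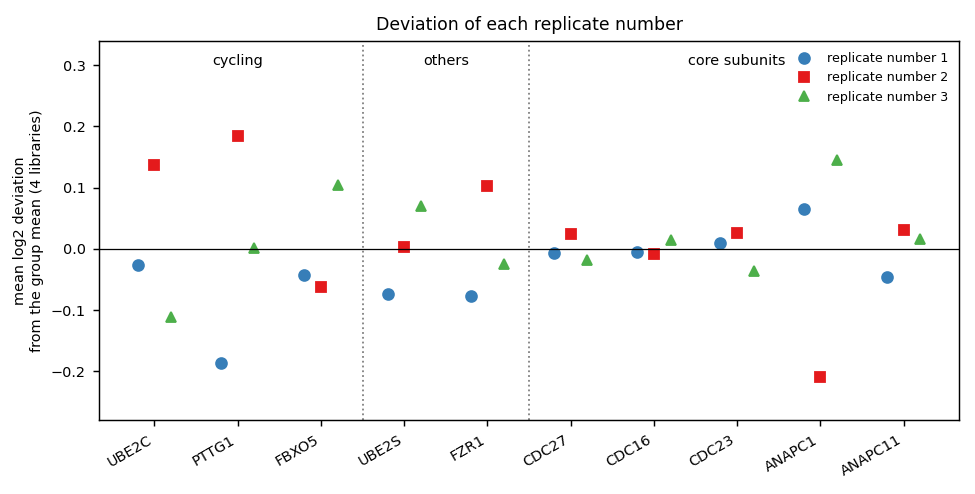
Mean log2 deviation from the group mean (vertical axis) of each gene (horizontal axis) in the 4 libraries that share a replicate number. Number 2 is high for PTTG1 (0.18) and UBE2C (0.14) and low for ANAPC1 (-0.21), and the other 4 core subunits shown lie near 0.

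Over all 12 libraries, the highest value was 1.63 times the lowest for PTTG1, 1.57 times for ANAPC1, 1.46 times for FBXO5 and 1.40 times for UBE2C. It was 1.31 times for FZR1, 1.29 times for UBE2S, 1.22 times for CDC23, 1.19 times for CDC27, 1.16 times for CDC16 and 1.12 times for ANAPC11. By this ratio, which holds the differences between replicate numbers, the 3 cycling regulators and ANAPC1 were the most variable of the 10, and the other core subunits the least. The log2 SD within groups and numbers was 0.13 for FBXO5 and 0.11 for PTTG1. It was 0.074 for UBE2C and 0.071 for ANAPC1, beside 0.077 for CDC23 and 0.076 for UBE2S. For FZR1, CDC27, CDC16 and ANAPC11 it was 0.061, 0.060, 0.057 and 0.054. As a single level per library, the mean log2 of the 3 cycling regulators minus that of the 5 core subunits, set to 0 at the siNeg mean, was -0.15, 0.17 and -0.03 with siCENPF. It was -0.12, 0.06 and -0.11 with siFOXM1 and -0.13, 0.11 and -0.17 with siCENPF+siFOXM1, against -0.08, -0.00 and 0.08 with siNeg. The group means were -0.01, -0.06 and -0.06 for the knockdowns and 0.00 for siNeg, and each knockdown group held values above and below 0. These levels describe a chosen list and carry no test.

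Genes whose pattern was most like that of each cycling regulator were sought over the 12 libraries, after the mean of each replicate number was removed, among 11107 genes with a mean normalized count of 100 or more. Pearson's r describes likeness among libraries that share groups and carries no test. For UBE2C these genes were COQ5 (0.939), TMEM101 (0.920) and PMM1 (0.919). For PTTG1 they were DKC1 (0.959), PSMC1 (0.958) and COMMD8 (0.957), and for FBXO5 they were CENPQ (0.876), PHF5A (0.874) and TMCO4 (0.874). Among the regulators themselves r was -0.43 between UBE2C and PTTG1, 0.58 between UBE2C and FBXO5, and -0.11 between PTTG1 and FBXO5. No regulator was among the 3 genes most like another.

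The 9 other core subunits, none of them a member, varied more widely in part: the highest library was 2.16 times the lowest for CDC26 and 1.55 times for ANAPC16, and between 1.17 and 1.47 times for the other 7. Their median log2 fold change was 0.07 with siCENPF, 0.01 with siFOXM1 and 0.02 with siCENPF+siFOXM1, beside a median of -0.00 over all genes, and 0 of 9 were called in any of these by limma with or without the block, or by edgeR or DESeq2. At an unadjusted p under 0.05, 0 passed without the block, and 1, 0 and 0 with it. Of all genes, 5.53%, 7.77% and 7.36% passed without the block and 16.9%, 21.6% and 21.3% with it. Those with the smallest unadjusted p were ANAPC7 (-0.13) and ANAPC5 (0.11) with siCENPF and ANAPC15 with siFOXM1 (-0.14), as log2 fold changes. Across all 14 core subunits the medians were -0.01, 0.00 and 0.00.

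A list of 8 other regulators held the coactivator CDC20, the E2 UBE2D1, spindle checkpoint genes and other modulators of the ligase. Limma called 0 of 8 with siCENPF, 1 with siFOXM1 and 0 with siCENPF+siFOXM1, where it called 0.337%, 0.66% and 0.458% of all genes. At an unadjusted p under 0.05, 2, 1 and 1 passed, where 5.53%, 7.77% and 7.36% of all genes did. EdgeR called 0, 1 and 0 of the 8 and DESeq2 1, 1 and 1. Of all genes, edgeR called 49, 96 and 68 and DESeq2 135, 244 and 166. With the block, limma called 1 higher and 1 lower with siCENPF, 1 higher with siFOXM1 and 1 higher with siCENPF+siFOXM1. It called 4.52%, 8.72% and 7.9% of all genes there. At an unadjusted p under 0.05 in the blocked fits, 3, 3 and 1 of the 8 passed. Those fits passed 16.9%, 21.6% and 21.3% of all genes. UBE2D1, an E2 of many ligases that can serve APC/C in vitro, was called higher with siFOXM1. It had 414, 407 and 390 normalized counts with siFOXM1, against 217, 239 and 277 with siNeg, a log2 fold change of 0.73 (adjusted p = 0.0258, limma). It had 427, 391 and 311 with siCENPF and 324, 394 and 363 with siCENPF+siFOXM1, with log2 fold changes of 0.61 and 0.56 that limma called with the block (adjusted p = 0.00132 and 0.00239) and not without it (0.102 and 0.139). All 9 knockdown libraries were thus above all 3 siNeg libraries for UBE2D1, unlike UBE2C and UBE2S. Of all genes, 9.31% did not overlap siNeg with siCENPF, 13.4% with siFOXM1 and 12.9% with siCENPF+siFOXM1. Leaving out siFOXM1 library 1, 2 or 3 or siNeg library 1 or 2 raised the unblocked adjusted p of UBE2D1 with siFOXM1 to 0.116, 0.0940, 0.105, 0.127 and 0.0866 (limma), and a fit of those groups alone gave 0.0629. The checkpoint gene BUB3 had a log2 fold change of -0.18 with siCENPF and was called lower with the block (adjusted p = 0.0257, limma) and not without it (0.725). That blocked call ended without number 1 (0.210) or number 3 (0.325), and those of UBE2D1 ended with siCENPF without number 1 (0.118) and in the FPKM table (0.0722), and with siCENPF+siFOXM1 in the FPKM table (0.0636). CDC20, the mitotic coactivator, had 4490, 4471 and 4922 normalized counts with siFOXM1, against 4038, 4147 and 4603 with siNeg, and was not called (0.12; adjusted p = 0.832, limma).

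A list of 23 genes held known APC/C substrates and ESPL1 (separase, which PTTG1 inhibits). Without the block, limma called 0 of 23 with siCENPF, 3 lower with siFOXM1 and 3 lower with siCENPF+siFOXM1, and none higher. It called 0.337%, 0.66% and 0.458% of all genes. At an unadjusted p under 0.05, 1, 5 and 5 passed, where 5.53%, 7.77% and 7.36% of all genes did. EdgeR called 0, 3 and 2 of the 23 and DESeq2 0, 4 and 4. Of all genes, edgeR called 49, 96 and 68 and DESeq2 135, 244 and 166. The genes limma called were CCNA2 (cyclin A2), CCNB1 (cyclin B1) and NEK2 (a centrosomal kinase) in both. CCNB1, the substrate whose loss ends mitosis, had 1641, 1747 and 1665 normalized counts with siFOXM1 and 1539, 1861 and 1661 with siCENPF+siFOXM1, against 2399, 2975 and 2706 with siNeg. The groups did not overlap, and its log2 fold changes were -0.67 and -0.67 (adjusted p = 0.0113 and 0.0140, limma). CCNA2 had log2 fold changes of -0.63 and -0.58 (adjusted p = 0.00540 and 0.0104, limma) and NEK2 of -0.84 and -0.82 (0.0280 and 0.0461). In the same libraries PTTG1, which is degraded with cyclin B1 at the protein level, differed by -0.24 and -0.18. With the block, limma called 7 lower and 1 higher with siFOXM1, 7 lower with siCENPF+siFOXM1 and 3 lower with siCENPF, where it called 8.72%, 7.9% and 4.52% of all genes. The added genes were CCNB2, CDC6, CKAP2 and RRM2 (lower) with siFOXM1 and with siCENPF+siFOXM1, KIF22 (higher, 0.20) with siFOXM1, and AURKA (-0.35), HMMR (-0.30) and RRM2 (-0.24) with siCENPF. Several of these blocked calls ended without 1 replicate number: those of CCNB2 with siFOXM1 (adjusted p = 0.233, limma) and siCENPF+siFOXM1 (0.186), CDC6 with siFOXM1 (0.372) and siCENPF+siFOXM1 (0.140), and HMMR (0.0945) and RRM2 (0.137) with siCENPF without number 3, and those of CDC6 with siFOXM1 (0.0546) and siCENPF+siFOXM1 (0.0607) without number 1. KIF22 lost its call without any 1 of the 3 numbers (0.0993 to 0.110), and the blocked fit of the FPKM table ended the calls of CDC6 with siFOXM1 (0.0541) and RRM2 with siCENPF (0.0682).

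The median log2 fold change of the 23 was -0.14 with siCENPF, -0.04 with siFOXM1 and -0.13 with siCENPF+siFOXM1. In these comparisons 22, 13 and 16 of the 23 lay below 0. Over all 14857 genes the medians were -0.00, and 7456, 7456 and 7529 genes lay below 0. At an unadjusted p under 0.05 in the blocked fits (limma), 12, 13 and 11 of the 23 passed. Those fits passed 16.9%, 21.6% and 21.3% of all genes. Several unblocked calls ended under an alternative while the fold change kept its size. In the FPKM table limma gave adjusted p of 0.0544 and 0.0756 for CCNB1 and of 0.0993 and 0.146 for NEK2, with siFOXM1 and with siCENPF+siFOXM1, and of 0.0555 for CCNA2 with siCENPF+siFOXM1. NEK2 with siCENPF+siFOXM1 was at 0.0539 by edgeR and at 0.147 in a limma fit of those groups alone. Without siFOXM1 library 1 or 3 or siNeg library 2 or 3, the adjusted p of CCNB1 with siFOXM1 was 0.0605, 0.0710, 0.0565 and 0.0632 (limma). NEK2 lost its call with siFOXM1 without any 1 of the 6 libraries (0.0547 to 0.133). With siCENPF+siFOXM1, CCNB1 lost its call without library 1 or 3 of that group or siNeg library 2 or 3 (0.0706 to 0.0968), CCNA2 without library 1 of that group or siNeg library 2 or 3 (0.0584 to 0.0726), and NEK2 without library 1 or 3 of that group or any siNeg library (0.0758 to 0.201). In the alternatives that ended a call, the log2 fold change was between -0.60 and -0.67 for CCNB1, between -0.51 and -0.57 for CCNA2 and between -0.65 and -0.93 for NEK2. In the blocked fit of all libraries the adjusted p of these genes lay between 3.47e-09 and 4.88e-08.

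**Figure D4:**
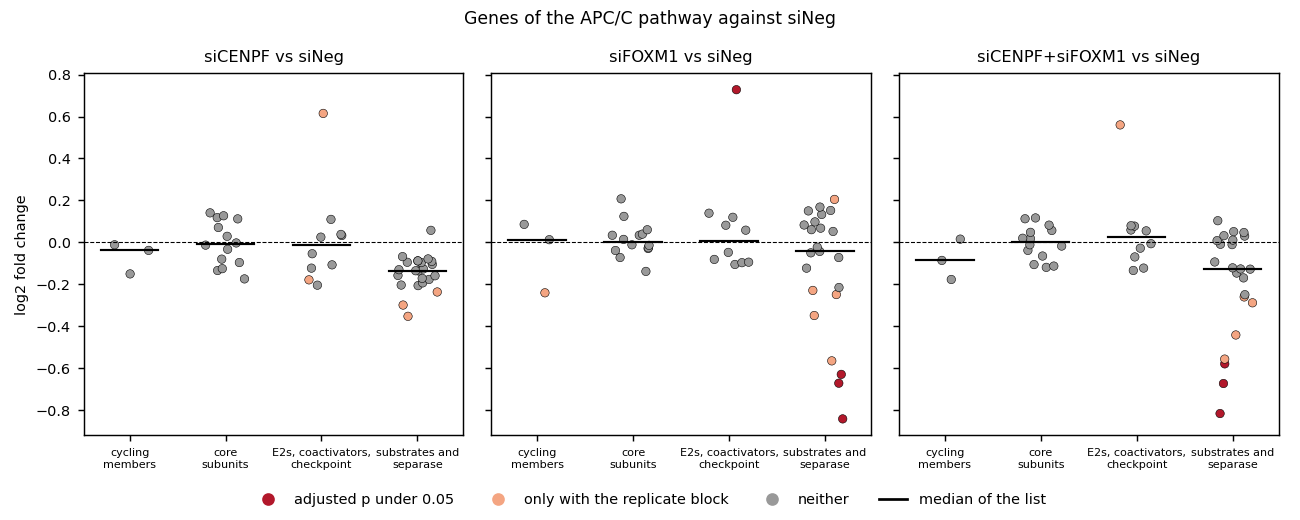
Log2 fold change against siNeg (vertical axis) of each gene in 4 groups of APC/C pathway genes (horizontal axis, points spread sideways for view), 1 panel for each knockdown; dark red marks genes limma called, orange those called with the replicate block alone, and lines the medians. Core subunits lie within 0.21 of 0 in all panels, while CCNA2, CCNB1 and NEK2 lie between -0.58 and -0.84 with siFOXM1 and siCENPF+siFOXM1.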

How the data were processed

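Polyadenylated RNA of 12 libraries (4 groups of 3) was measured. Per the submitters' processing notes, bcl2fastq, Trimmomatic, TopHat and edgeR were used with the hg38 build; no source used here gives versions, the annotation or the strand used in counting. The authors deposited normalized counts (a signal per gene, scaled so that library sums are alike, by an unnamed method), FPKM, and per comparison CPM, log2 fold changes, the likelihood ratio as a score, p-values, and gene lengths and call flags as other columns, per the file headers. Reads per gene were recovered from the deposited CPM for 14556 genes, and 100% of values were whole to within 0.01 reads.

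Tests used limma 3.58.1 (trend, robust; R 4.3.3) on log2(normalized count + 1) over all 12 libraries, with 4 group means, for genes at 10 or more in at least 3 libraries. They are two-sided, with Benjamini-Hochberg adjustment over 14857 genes and a threshold of 0.05. Alternatives were a replicate block, a pseudocount of 10, no filter, log2(FPKM + 0.5), TMM rescaling, edgeR 4.0.16 and DESeq2 1.42.0 on recovered reads, the compared groups alone, and leaving out libraries. The fitting code was tested on simulated data.

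The labels give the groups the same replicate numbers. Deviations from the group means correlated between libraries of the same number in 18 of 18 pairs (r of 0.272 to 0.639), so these libraries deviated together. In 36 pairs of different numbers r was -0.51 to 0.0248. The deviations of a group sum to 0, so these values follow from the first and are no separate evidence. The labels do not say that the libraries were paired. The block is therefore given where it changes a call.

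RPKM used reads over the union of exons in GENCODE v29 or, where stated, over the longest coding transcript. Members and gene lists were chosen with earlier results of these data known. The text names the 10 members, the 2 targets, the genes of each list past the threshold or otherwise those with the smallest p, and the 3 genes most like each cycling regulator; CDC20 was named in addition. SGO1 is listed under its older symbol SGOL1.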

Additional observations from a re-analysis of the deposited data

How the results depend on the processing

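Of 600 alternative values of the 30 member fold changes against siNeg, 545 kept their direction and their side of the threshold, 7 passed it and 48 changed sign; 17 of the 30 kept their sign throughout. Sign changes were small, at most 0.117 on the log2 scale, and at most 0.00678 where no library was left out. With siCENPF, PTTG1 was at 4.94e-05 by edgeR and 0.00103 by DESeq2. With siFOXM1, FBXO5 was at -0.00288 by edgeR, -0.00523 by edgeR with the replicate block and -0.00678 by DESeq2.

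Leaving out libraries gave log2 fold changes with siCENPF of -0.133 to 0.0433 for UBE2C, -0.167 to 0.117 for PTTG1, -0.0309 to 0.0212 for CDC27 and -0.0672 to 0.0510 for ANAPC11. With siFOXM1 they were -0.0147 to 0.163 for UBE2C, -0.100 to 0.154 for FBXO5, -0.0997 to 0.0259 for UBE2S, -0.0633 to 0.0141 for CDC23 and -0.107 to 0.0891 for ANAPC1. With siCENPF+siFOXM1 they were -0.0529 to 0.0575 for UBE2C, -0.215 to 0.0576 for FBXO5, -0.0831 to 0.0931 for ANAPC1 and -0.00801 to 0.050 for ANAPC11. The cause was not tested.

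The replicate block called 1 member with siFOXM1, as did TMM rescaling with the block and edgeR with the block (PTTG1 in each; adjusted p = 0.0236, 0.0258 and 0.0212, limma and edgeR), and it changed no other call of a member. Leaving out libraries gave 0 to 1 members called with siCENPF, 0 to 1 with siFOXM1 and 0 to 2 with siCENPF+siFOXM1, the upper values without number 2 in the blocked fit. There UBE2S was called lower with siCENPF (-0.22, adjusted p = 0.0110, limma) and with siCENPF+siFOXM1 (-0.19, 0.0253), and PTTG1 with siFOXM1 (-0.21, 0.0441) and siCENPF+siFOXM1 (-0.23, 0.0237). The blocked fits with FPKM, TMM and edgeR were chosen after seeing the data. With 3 libraries a group, the unblocked 95% intervals are wide, as for PTTG1 with siFOXM1 (-0.56 to 0.08). Over all genes, limma called 50 with siCENPF, 98 with siFOXM1 and 68 with siCENPF+siFOXM1 without the block and 671, 1295 and 1174 with it, and DESeq2 called 135, 244 and 166.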

Other observations

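UBE2D1 was the one gene of the regulator list with a called interaction of both siRNAs in the fit with replicate number as a block (log2 interaction of -0.78, adjusted p = 0.0133, limma; 0.760 without the block). That fit called 0.841% of all genes. The log2 fold changes of UBE2D1 were 0.61 with siCENPF, 0.73 with siFOXM1 and 0.56 with siCENPF+siFOXM1, so that the double knockdown stood below the sum of the single ones. Its mean was 376, 404 and 360 normalized counts in these groups, against 244 with siNeg, which enters all 3 fold changes. A joint effect of the siRNAs and a difference particular to siNeg cannot be told apart here.

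Separase (ESPL1), which PTTG1 inhibits, averaged 1011 ± 15.5 normalized counts with siFOXM1, against 924 ± 83.4 with siNeg, and PTTG1 averaged 1952 ± 194, against 2309 ± 261 (SD, n = 3 each). ESPL1 was not called in any comparison with siNeg, and the difference between the genes was not tested.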
